A study of Arabidopsis thaliana with 25 samples.

Results

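Arabidopsis has 3 paralogues of NOP2: NOP2A (AT5G55920, also called OLI2), NOP2B (AT4G26600) and NOP2C (AT1G06560). The comparison described here set single mutants of each against wild type at 7 cytosines of ribosomal RNA (rRNA). The mutants were taken by the genotype in their labels, without use of any measured value, and make up 12 of the 25 libraries of the series. With the wild type of the same experiment the set holds 15 libraries. These are 3 each of wild type, nop2a-2 (oli2-2), nop2b-1 and nop2c-1, 2 of nop2c-2 and 1 of nop2b-2. All came from whole *Arabidopsis thaliana* seedlings grown on soil and harvested 10 days after germination. The plants were of the Columbia ecotype, and each mutant carries a T-DNA insertion, so each allele is a single insertion line. The study's methods and its primer list assign the insertion lines of nop2c-1 and nop2c-2 the opposite way round, so which line each name stands for cannot be told apart here. NOP2 transcript and protein levels in the mutants were not analysed here.

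RNA m5C methyltransferases of the NOP2/Sun family transfer a methyl group from S-adenosylmethionine to a cytosine, which is held during the reaction by a cysteine of the enzyme. Yeast NOP2 is an essential nucleolar protein of large ribosomal subunit assembly and methylates a 25S rRNA cytosine close to the peptidyl transferase centre, whose *Arabidopsis* counterpart is C2860. The other 25S site, C2268, corresponds to the target of yeast RCM1, whose *Arabidopsis* homologue is NSUN5. The question put to the mutants was therefore whether loss of any single NOP2 paralogue lowers C2860.

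RNA bisulfite sequencing (RBS-seq) reads m5C as cytosine and unmethylated cytosine as thymine, and the methylation level is the percentage of cytosine among both. Other bisulfite-resistant cytosines would be counted too. The 2 nuclear sites are shown first because they are the ones with a known yeast enzyme. In each line the capital marks the measured cytosine, and 10 bases stand on each side. Base 1 of the deposited 25S sequence, which has 3375 bases, is its 5′ end.

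25S C2860, positions 2850 to 2870: tttgatccttCgatgtcggct

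25S C2860 as read when methylated: tttgatttttCgatgttggtt

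25S C2860 as read when unmethylated: tttgatttttTgatgttggtt

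25S C2268, positions 2258 to 2278: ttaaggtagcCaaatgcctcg

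The C2860 window holds 4 other cytosines, all of which become thymine in a converted read, so that the single letter in capitals carries the measurement. The remaining sites lie in organelle rRNAs. Chloroplasts have 16S C916 (ATCG01210), 23S C1940 and 23S C1977 (both ATCG01180), and mitochondria have 18S C960 (ATMG01390) and 26S C1586 (ATMG00020). The deposited row for the last site carries an extra 0 at the end of the position, and it was read as C1586 because the sequence has 2568 bases.

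At C2860 all single mutants lay close to wild type. The level was 82% in wild type, nop2a-2, nop2b-1 and nop2c-1 alike, 81.0% in nop2b-2 and 84.4% in nop2c-2. The lowest and highest of the 6 genotypes were thus 3.45 percentage points apart, and the wild type value lay between them. The 5 mutants averaged 82.3%, which is 0.277 points above wild type. This mean difference turned to -0.258 points without nop2c-2. A whole percent hides up to 1 point of a difference between averages, so the equal values are equal within 1 point. The deposited levels are the authors' averages over libraries, except that of nop2b-2, and they come without the spread between libraries or the number of reads at each site. No SD or interval of a difference can therefore be given. With 1 wild type value against 5 mutant values, an exact permutation test has 6 regroupings and cannot go below p = 0.167, so none was run.

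**Figure D1:**
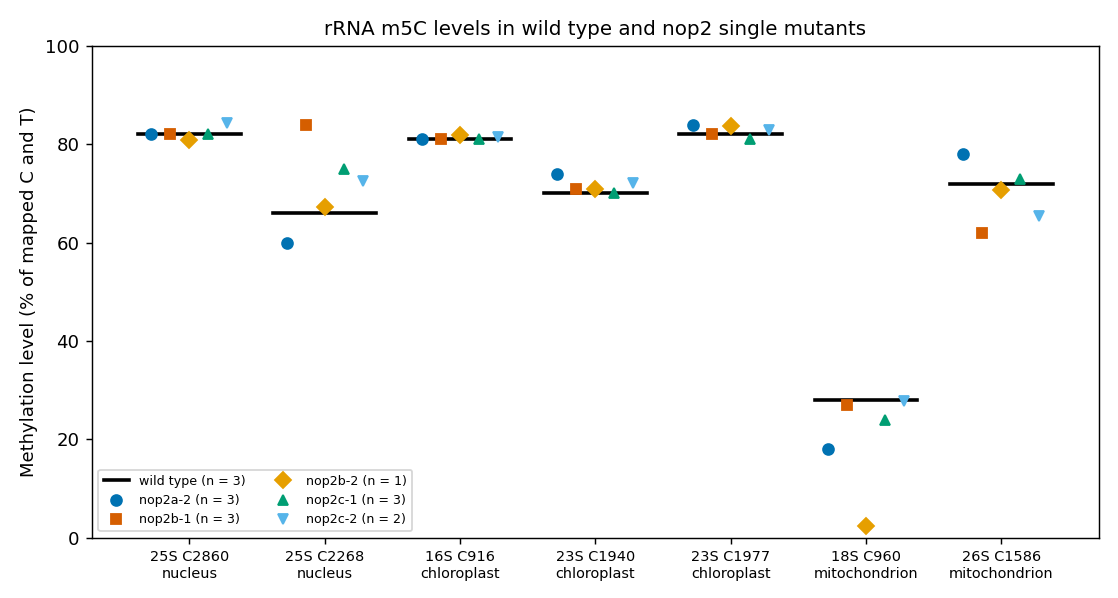
Methylation level (percent of mapped cytosine and thymine) at each of the 7 sites. The black line is the wild type level and each symbol is 1 nop2 mutant, with n the number of libraries averaged; no error bars can be drawn. The mutants lie within 2.42 points of the line at C2860 (81.0% to 84.4%) and spread more at C2268, C960 and C1586.

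C2860 also varied less over this panel than over that of experiment 2. In experiment 2, where wild type, the single mutants trdmt1, trm4a and trm4b-1, and the trdmt1 trm4b double mutant were grown on plates with 1 library each, C2860 ran from 74% to 85%, a range of 11 points. These 4 mutants lack enzymes of tRNA methylation or a homologue of one. Growth medium, experiment and the averaging of libraries all differ between the panels, so the difference in range was not tested. Of the 7 sites, 16S C916, 23S C1940 and C2860 had the smaller range in the nop2 panel, at 0.932, 4 and 3.45 points against 4, 6 and 11. The 23S C1977 range was 3 points against 2. The sites that spread most were C960, with 25.7 points against 10, C2268, with 24 against 14, and 26S C1586, with 16 against 9. The part of read depth in these ranges was not tested.

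**Figure D2:**
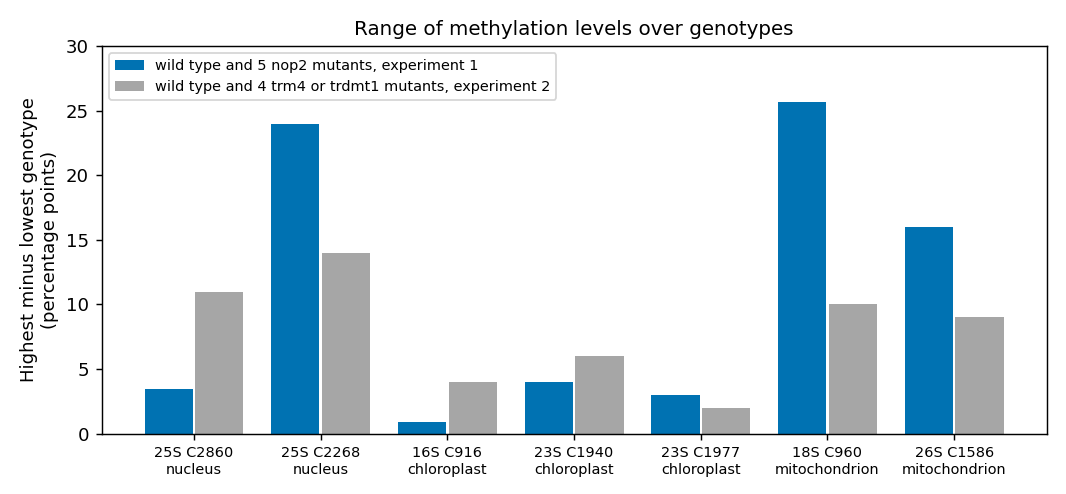
Highest minus lowest genotype level at each site, in percentage points. Blue bars are wild type and 5 nop2 mutants of experiment 1, and grey bars wild type and 4 other mutants of experiment 2. The blue bars are the taller at 18S C960 (25.7 points), 25S C2268 (24 points) and 26S C1586 (16 points).

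The 5 mutants at 7 sites give 35 differences from wild type, of which 16 were above, 11 below and 8 equal to it. One of those below, nop2c-2 at C960, differed by less than the rounding of the wild type value. A limit of 10 points was used to pick out large differences. It equals the gap between the wild types of the experiments at C2268, the widest such gap of the 7 sites. Past it were 2 of the 35, or 5.71%, namely nop2b-1 at C2268 and nop2b-2 at C960. In experiment 2 the share was 0% of 28 differences, and over all 77 differences of the series, nsun5 mutants included, it was 5.19%. The 77 include the 35 nop2 differences themselves, and the calls they add all came from the nsun5 mutants. That these shares are near each other therefore does not show whether the nop2 share is usual. Most differences were small, with 24 of the 35 within 3 points and a median size of 1.03 points, against 3 points in experiment 2. The mean size was 3.57 points against 3.07 points. The nop2 differences therefore combined many values near 0 with a few large ones, the largest of them from the 1 library of nop2b-2. The other levels of this panel, wild type included, are averages over libraries, while each level of experiment 2 is 1 library. The part of averaging in the contrast between the experiments was not tested.

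**Figure D3:**
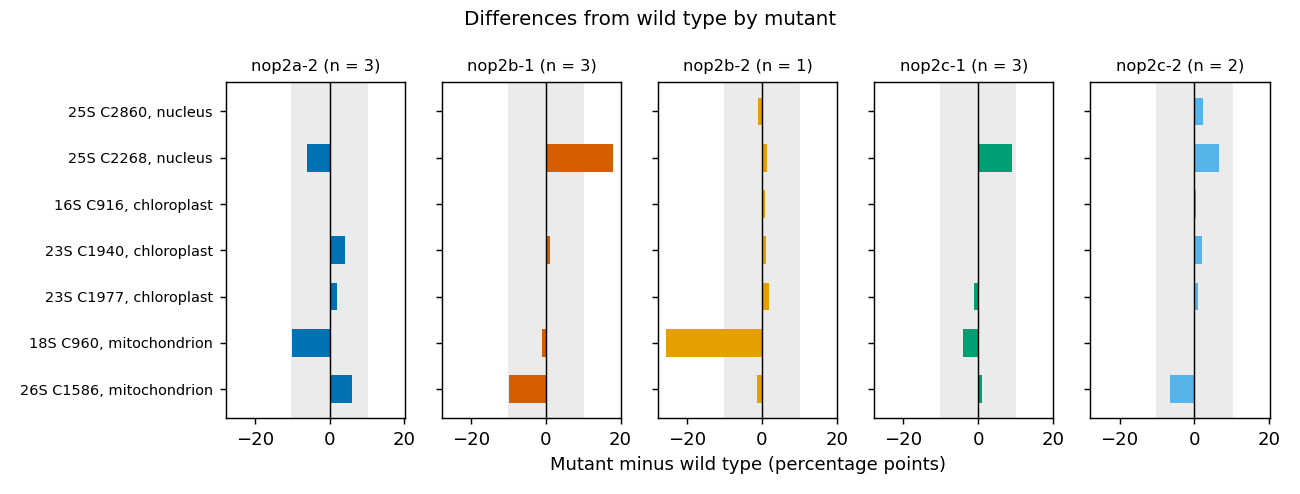
Mutant minus wild type in percentage points at each site, 1 panel per mutant, with n the number of libraries. The grey band spans 10 points on either side of wild type. One bar leaves the band in nop2b-1 (18 points at C2268) and one in nop2b-2 (-25.7 points at C960).

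NOP2A was also found in a genetic screen under the name OLI2. In nop2a-2, the C2860 level equalled that of wild type, and so did 16S C916, at 81%. The largest difference was at mitochondrial 18S C960, with 18% against 28%. It was the highest of the 6 genotypes at 26S C1586 (78% against 72%) and 23S C1940 (74% against 70%). At 23S C1977 it had 84% against 82%, not separable at this rounding from nop2b-2 with 83.8%. At C2268 it was the lowest, at 60% against 66%, and was the one mutant below wild type there. Its differences averaged 4 points in size and none was past the limit, although C960, in whole percent, stood right at 10 points under wild type.

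The nop2b alleles departed from wild type at different sites. In nop2b-1, C2268 was 84% against 66%, which is 127% of the wild type level and made it the most methylated of the 7 sites in this mutant, whereas in wild type it ranked above C960 alone. The C1586 level of nop2b-1 was the lowest of the panel, at 62%, which is 10 points under wild type. Its 3 chloroplast sites were within 1 point of wild type, and C960 was 27% against 28%. In nop2b-2 the low value was C960, at 2.33% or 8.31% of the wild type level, while C2268 was 67.3% and C1586 was 70.8%. Apart from C960, the nop2b-2 differences averaged 1.22 points in size. This profile rests on 1 library, and the part of read depth in it was not tested. The C960 level is under the 20% that the authors required for calling a site. Their conversion control allowed a small share of unconverted cytosine, and whether this level differs from none was not tested.

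Alleles of 1 gene share the target, so the gap between them shows how far levels moved without a change of gene. The nop2b alleles were 24.7 points apart at C960, 16.7 points at C2268 and 8.75 points at C1586, and at most 1.80 points at the other sites. At C2860 they differed by 1.03 points. The largest differences from wild type in this panel therefore each appeared in 1 nop2b allele and not in the other. Whether a gap reflects the alleles or the libraries was not tested.

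The nop2c alleles, with 3 and 2 libraries, were closer to each other than the nop2b alleles, with 3 and 1. The part of library number in this contrast was not tested. The nop2c alleles were 7.49 points apart at C1586, where nop2c-1 had 73% and nop2c-2 had 65.5%, and 0.569 to 3.90 points apart elsewhere. Their differences from wild type had opposite signs at C1586 and at 23S C1977. At C2268 both were above the 66% of wild type, with 75% in nop2c-1 and 72.5% in nop2c-2. At C960, nop2c-1 had 24% against the 28% of wild type, while nop2c-2, with 27.9%, could not be told from it at this rounding. The mean size of a difference was 2.14 points in nop2c-1, the smallest of the 5 mutants, and 2.73 points in nop2c-2. Neither allele passed the limit at any site.

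Read by site, C2268 was above wild type in 4 of 5 mutants, and C960 was below it in 4 of 5, with nop2c-2 equal to it within rounding. All mutants were compared with the same wild type value, so these counts are not independent of each other. At C2268 the mutants averaged 71.8%, which is 5.77 points above wild type. This fell to 2.72 points without nop2b-1 and rose to 8.72 points without nop2a-2. At C960 the mutants averaged 19.8% and had a median of 24%. The mean difference was -8.15 points and became -3.78 points without nop2b-2. The wild type of experiment 2 had 76% at C2268, above all nop2 mutants but nop2b-1, and 30% at C960, above all of them.

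The chloroplast sites moved least. Their 15 differences ran from -1 to 4 points and averaged 1.02 points in size, against 4.43 points for the 10 nuclear and 6.55 points for the 10 mitochondrial differences. Read depth at each site was not available, so its part in this order was not tested. No nop2 mutant was below wild type at 16S C916 or 23S C1940, but 3 mutants at C916 and 1 at C1940 equalled it only within rounding. The wild type of experiment 2 had 76% at C916, below all nop2 mutants. At C1940 it had 74%, above all of them but nop2a-2, which equalled it. In experiment 2 the differences averaged 2.25 points in size for chloroplast, 4.63 for nuclear and 2.75 for mitochondrial sites. The chloroplast average was thus the smallest in both experiments, while the mitochondrial average was the largest in the nop2 panel alone. That rank rests on 1 library: without nop2b-2 the mitochondrial average was 4.82 points and the nuclear one 5.24 points, and without its C960 value alone both were 4.43 points.

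Chloroplast and mitochondrial rRNAs are both of bacterial type, and a pair of the organelle sites in each subunit proved to be the same position in an alignment of the deposited sequences. The 16S and mitochondrial 18S rRNAs were 80.2% identical over 1386 aligned positions, and C916 aligned with C960. The *E. coli* counterpart of C916 is methylated by RsmB, also called Fmu. The 23S and 26S rRNAs were 76.1% identical over 2070 positions, and C1977 aligned with C1586. These pairs are printed because measured cytosines align in them while their levels differ. Capitals mark the bases that differ within a pair, and the measured cytosine is the central base.

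16S C916, positions 901 to 931: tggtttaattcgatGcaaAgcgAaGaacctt

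18S C960, positions 945 to 975: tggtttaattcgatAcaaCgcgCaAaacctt

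23S C1977, positions 1962 to 1992: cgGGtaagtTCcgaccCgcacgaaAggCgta

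26S C1586, positions 1571 to 1601: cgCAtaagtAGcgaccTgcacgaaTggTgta

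The C916 and C960 windows differed at 4 of 31 bases, both before and after conversion of cytosine to thymine. Over 101 bases they differed at 24 positions before and 19 after conversion. In wild type the aligned cytosines had 81% and 28%. Across the nop2 mutants C916 stayed between 81% and 81.9%, while C960 ran from 2.33% to 27.9%. The mutant with the lowest C960, nop2b-2, had the highest C916 of the panel. The windows of C1977 and C1586 differed at 7 of 31 bases, or 5 after conversion, and over 101 bases at 22 or 17. C1977 kept to 81% to 84%, while C1586 ran from 62% to 78%. In each pair the mitochondrial cytosine had the lower level in all 6 genotypes and the wider range over them. Read numbers at the sites were not given, and the part of read depth in the ranges was not tested.

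**Figure D4:**
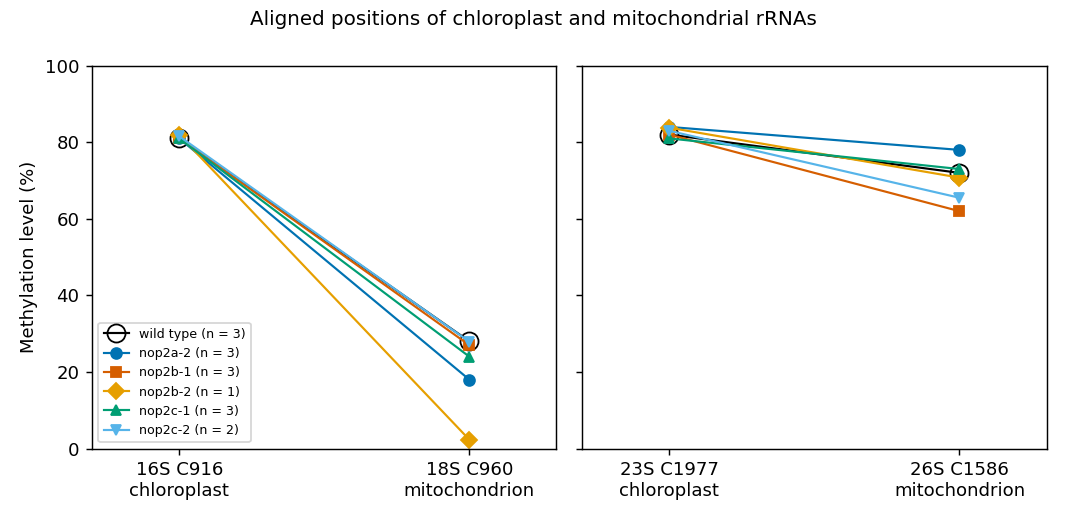
Methylation level (percent) at a chloroplast cytosine and at the mitochondrial cytosine aligned with it, 1 line per genotype, for C916 with C960 and C1977 with C1586; n is the number of libraries. The lines start within 0.932 and 3 points of each other in the chloroplast and fan out to 25.7 and 16 points in the mitochondrion.

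The nuclear sites had no such partner among the 7. C2860 aligned with a cytosine at position 2519 of chloroplast 23S and with one at position 2112 of mitochondrial 26S rRNA, and neither is a listed site. C2268 aligned with a guanine in both, at positions 1950 and 1559. C1940 aligned with a cytosine at position 1549 of 26S rRNA that is not among the 7 either. The study does, however, name C1549 of 26S rRNA among its conserved m5C sites, as highly methylated in 4 of the species it tested and not in all. After conversion, each 21-base window occurred once in its own rRNA and in none of the other *Arabidopsis* rRNAs. With 11 bases, the windows of C1940 and C1977 also occurred in 25S rRNA. The C1940 window is shown because it has the largest chloroplast difference of the panel, 4 points in nop2a-2.

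23S C1940, positions 1930 to 1950: tataacggtcCtaaggtagcg

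C1940 and C1977 are 37 bases apart, so a read may cover both.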

How the data were processed

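Total RNA was bisulfite converted and sequenced on an Illumina MiSeq. Per the study's methods, the authors mapped reads with CLC Genomics Workbench, in a version not given in the sources used here, to rRNA sequences with every cytosine turned into thymine. Mapping to such references can assign reads between similar rRNAs. The deposited values are percent methylation, made by the authors as mapped cytosines over mapped cytosines plus thymines. In experiment 1 they are averages over 2 or 3 libraries except for nop2b-2. Of the 6 columns used, 4 hold whole percent. The study lists total reads per library and set a minimum coverage for a site. The reads behind each value are not in the table used, so no interval was computed. A minimum level of 20% was set by the authors for calling a site, and 2 of the 42 values used here were below it, both at C960. The labels name TAIR10. The 6 loci looked up in the RefSeq gene table (assembly TAIR10.1) were all found, and no coordinates are given.

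The oli2-2 column was matched to nop2a-2 by the genotype label. Differences from wild type are in percentage points, and no test was run. The members, the limit of 10 points and the lists were chosen with earlier results of these data known. The rule for naming took in each of the 7 sites and 5 mutants. Global alignment scored 2 for a match and -2 for a mismatch, with -5 to open and -0.5 to extend a gap and none at the ends. The aligner was tested on simulated data. Comparison of the NOP2 proteins was planned, and their sequences were not used here. Python 3.11.15, NumPy 2.4.6, Biopython 1.88 and matplotlib 3.10.9 were used.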

Additional observations from a re-analysis of the deposited data

How the results depend on the processing

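No paired analysis was possible because each genotype has 1 deposited value, and leaving out single replicates was not run for the same reason. The 2 differences past 10 points became 9 with a limit of 5 points and 1 with a limit of 20 points. There were 4 past 9 points, the largest difference in experiment 2, and 4 when a difference of exactly 10 points was counted. Against the mean of both wild types there were 5, which added nop2a-2 at C960 and C2268 and nop2b-1 at C1586. Centring each genotype on its chloroplast sites gave 4, and leaving out nop2b-2 gave 1. Neither pair past the limit changed sign under any alternative run, though a change of scale or rounding could not reverse differences of that size. The mean of the mutants at C2860 lay between -0.258 and 0.604 points of wild type when each mutant was left out in turn. At C960 these means lay between -10.2 and -3.78 points, and at C1586 between -4.18 and -0.185 points. The number of sites whose converted window occurs in another rRNA was 0 and became 2 with 5 bases on each side. Of 140 alternatives in percentage points to the 35 single differences, 26 moved a value by more than the SD over the 6 genotypes. Of these, 15 came from the mean of both wild types. That setting moves all mutants at a site by the same amount, so the 15 are every mutant at C916, C1940 and C2860. They follow from the gap between the wild types alone. At C2860 the mutants lay 0.968 to 4.42 points above that mean. The averages by genome without nop2b-2 were added after seeing the data.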

Other observations

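The following pattern was picked out once the values were known and was not tested. Nuclear 25S C2268 and mitochondrial 26S C1586 had nearly reversed orders over the 6 genotypes. At C2268 the order from the lowest was nop2a-2 with 60%, wild type with 66%, nop2b-2 with 67.3%, nop2c-2 with 72.5%, nop2c-1 with 75% and nop2b-1 with 84%. At C1586 the order from the highest was nop2a-2 with 78%, nop2c-1 with 73%, wild type with 72%, nop2b-2 with 70.8%, nop2c-2 with 65.5% and nop2b-1 with 62%. The differences from wild type had opposite signs in 4 of the 5 mutants, with nop2c-1 the exception at 9 and 1 points. In experiment 2 the signs were opposite in 3 of 4 mutants. The difference was 9 points at C2268 and -3 points at C1586 in trm4a, -5 and 1 points in trm4b-1, and 1 and -2 points in trdmt1. The exception was trdmt1 trm4b, with 4 points at C2268 and 6 points at C1586, the largest C1586 difference of the 4 mutants. All mutants of an experiment share its wild type value, and the sites lie in rRNAs of different compartments.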
